A study of Caenorhabditis elegans with 16 samples.

Results

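The fip (fungus-induced protein) and fipr (fungus-induced protein related) genes of the worm Caenorhabditis elegans were described in RNA from whole L4 larvae. Members were the rows of the normalized count table whose gene symbol is fip or fipr followed by a number, which gave 34 transcript rows of 33 genes (7 fip and 26 fipr) among 26080 rows. Only fipr-2 had a pair of rows, for its transcripts F23H12.9a and F23H12.9b. The annotated genes fipr-14, fipr-15 and fipr-25 were not analysed here. The worms were the wild-type strain N2 and 2 strains that lack both adenosine deaminases acting on RNA (ADARs). In both strains adr-1 on chromosome I and adr-2 on chromosome III are mutated, by the alleles gv6 and gv42 in BB4 and by tm668 and ok735 in BB21, and both are called ADAR mutants together. Heat-shocked worms spent 75 min at 34 °C, 20 min at room temperature and 3 h at 20 °C, and the control worms of all strains stayed at 20 °C on OP50 bacteria (standard conditions). Each condition had 3 libraries of N2, 3 of BB4 and 2 of BB21, 16 in all.

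The family was named after genes that C. elegans switches on when the fungus Drechmeria coniospora infects its epidermis. The products are short peptides, most of them predicted to be secreted, and they are studied beside the nlp and cnc families of epidermal antimicrobial peptides. ADARs convert adenosine to inosine in double-stranded RNA, and in the worm ADR-2 is the enzyme that edits while ADR-1 binds RNA and modulates that editing. Specific roles of most single fip and fipr genes are not given here, so members are ordered by chromosome and neighbourhood. In the annotation WBcel235 the transcripts of the members were 129 to 776 nt long, and 10 of the models held no UTR. Chromosome V held 14 of the genes, chromosome III 8, chromosome I 5, chromosome IV 3 and chromosome X 3. Many stood beside another member: no protein-coding gene lay between fip-6 and fipr-26 or between fipr-22 and fipr-24 on chromosome I, between fipr-18 and fipr-19 or between fip-3 and fipr-16 on chromosome III, between fip-7 and fipr-28 on chromosome IV, between fipr-5 and fipr-9 or between fipr-6 and fipr-7 on chromosome V, or between fip-5 and fipr-21 on chromosome X.

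The libraries fell into sets that stand apart, and this touches every value below. The 10 libraries whose titles end in 12_7 or 28_6 held 4699505 to 9624995 reads, and the other 6 (N2 and BB4 replicates 3 and BB21 replicates 2, from either condition) held 30011732 to 35693369. The summed normalized count of the 33 genes, with F23H12.9a alone standing for fipr-2, was 6008 to 21221 in the 10 shallow libraries and 1666 to 3293 in the 6 deep ones, with no overlap. Under standard conditions 13 of the 34 member rows were higher in every shallow than in every deep library and 1 was lower, against 24.6% and 30% of all 24401 rows with a mean of at least 1. After heat shock these numbers were 18 and 1 of 34, against 24.4% and 29.7%. Within each condition the summed counts of the nlp and of the cnc peptides were higher in every shallow than in every deep library too. Over both conditions the nlp sum was 5513 to 17936 in the shallow and 1939 to 4887 in the deep libraries. That of the cnc peptides was 706 to 5344 and 217 to 1124. The summed count of 7 rows of epidermis markers was 7565 to 14905 in the shallow and 5065 to 8441 in the deep libraries, that of 9 rows of body muscle markers 14134 to 34838 and 65456 to 142585, and that of 27 rows of molting genes 1649 to 5711 and 7197 to 27180. Their part in the difference was not tested, depth and other differences between the sets cannot be told apart, and in whole worms fewer cells of a type cannot be told apart from less RNA per cell. In the mutants adr-2 stood at 140 to 593 normalized counts over both conditions and in N2 at 732 to 1442, so the labels and the targeted gene go together, and 3 of 7 heat-shock protein genes rose in N2 and 6 of 7 in the ADAR mutants (adjusted p under 0.05, limma), against 2.36% and 5.01% of all 24401 tested rows.

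**Figure D1:**
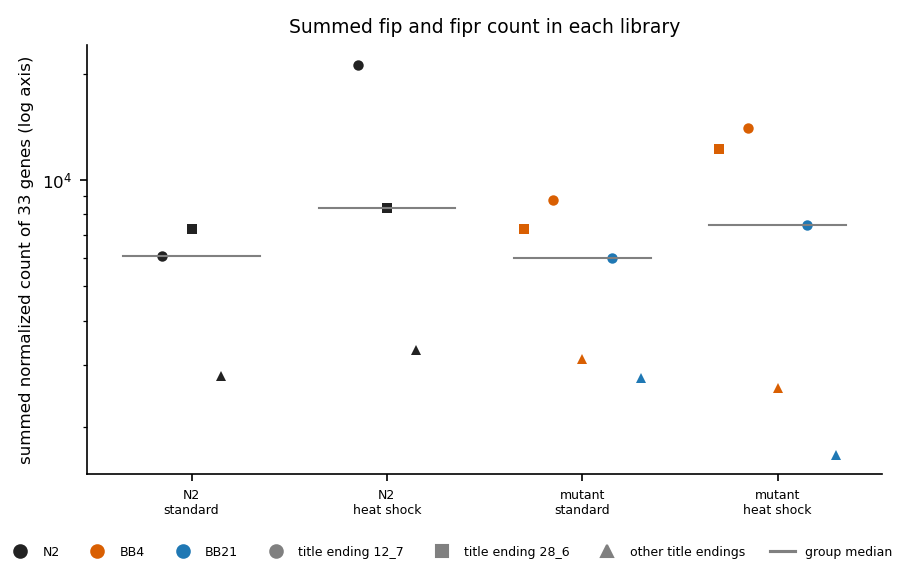
Summed normalized count of the 33 fip and fipr genes on a log axis, 1 point per library, coloured by strain and shaped by title ending, with grey lines at group medians. The 6 deep libraries (triangles) lie at 1666 to 3293 and all other libraries at 6008 or more.

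The highest member was fipr-21 on chromosome X, both in normalized count (mean 1387 over the 16 libraries) and per kb of transcript (4093). It was followed per kb by fipr-8 (2179), the F23H12.9b transcript of fipr-2 (1759) and fip-2 (1503), all on chromosome V. The models of fipr-21 and F23H12.9b hold no UTR, which raises their values per kb, and per kb of coding sequence F23H12.9a (2539), fip-2 (2043) and fipr-4 (1792) stood above F23H12.9b (1780). The lowest was fipr-12, with a mean of 0.593 normalized counts and no read in 8 of 16 libraries, and it alone missed the minimum mean of 1 that a row needed for testing. A mean of at least 20 was reached by 23 of the 34 rows. All 11 rows under it lay on chromosomes III, IV and V, and the chromosome III genes reached no more than 39.4 (fipr-29). In the share of the family's summed count, which is not corrected for length, fipr-21 made up 14% to 31% of a library and fipr-8 5.33% to 11.8%.

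The fip-4 gene on chromosome V was the 1 member higher in every deep than in every shallow library. It gave no read in 7 of the 10 shallow libraries, 1.28 to 2.13 normalized counts in the other 3, and 7.45 to 11.3 in the deep ones, where 3 reads correspond to 1.03 to 1.31. In the shallow libraries 3 reads correspond to 3.85 to 9.51, so all of their fip-4 values lie under that level. No member row shared its reads in all libraries with another row, although 722 rows of the table did.

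Neighbouring members often kept a near-constant ratio from library to library. The F23H12.9b transcript of fipr-2 was 0.804 to 0.844 times F23H12.9a, 2 transcripts of 1 gene that count the same reads in part. On chromosome I fipr-23 was 0.689 to 0.792 times fipr-22 while fipr-22 itself ran from 58.4 to 996 normalized counts. On chromosome V fipr-6 was 0.583 to 0.761 times fipr-4, and fipr-7 was 0.385 to 0.497 times fipr-8. The ratios of fipr-9 to fipr-5 and of fipr-11 to fipr-10 were wider, at 0.706 to 1.14 and 0.743 to 1.13. Of the 231 pairs of rows whose mean reached 20 and that had reads in every library, 23 pairs lay in the same neighbourhood. A neighbourhood was a run of members along a chromosome, each less than 20000 nt from the member before it. All 10 pairs with the steadiest ratio were among these 23 pairs, the median SD of the log2 ratio being 0.269 within neighbourhoods and 0.947 for other pairs. The steadiest of them (SD 0.020) was the pair of fipr-2 transcripts, which share a neighbourhood by definition and are counted in these numbers. Most of the 23 pairs combine the 6 neighbours fipr-4 to fipr-9 of chromosome V, so they share genes and are not independent. In other neighbourhoods this SD was 0.065 for fipr-22 and fipr-23 and 0.187 for fipr-10 and fipr-11. It was 0.494 for fip-5 and fipr-21, 0.678 for fipr-1 and F23H12.9a, and 1.01 for fipr-22 and fipr-24. Reads aligning to several transcripts were kept by the authors, so reads of similar neighbours may be counted for both, and the separate levels of such pairs are uncertain to that extent.

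Other neighbours did not keep their ratio. The gene fipr-24 was 0.229 to 0.563 times its neighbour fipr-22 under standard conditions and 0.297 to 2.19 times after heat shock. Likewise fipr-26 was 0 to 0.244 times fip-6 under standard conditions and 0.126 to 1.21 times after heat shock. The gene fipr-1 was 0.545 to 0.774 times the F23H12.9a transcript of fipr-2 under standard conditions and 0.175 to 0.586 times after heat shock. The ratio of fipr-26 to fip-6 under standard conditions rests on 0 to 21 reads of fipr-26.

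**Figure D2:**
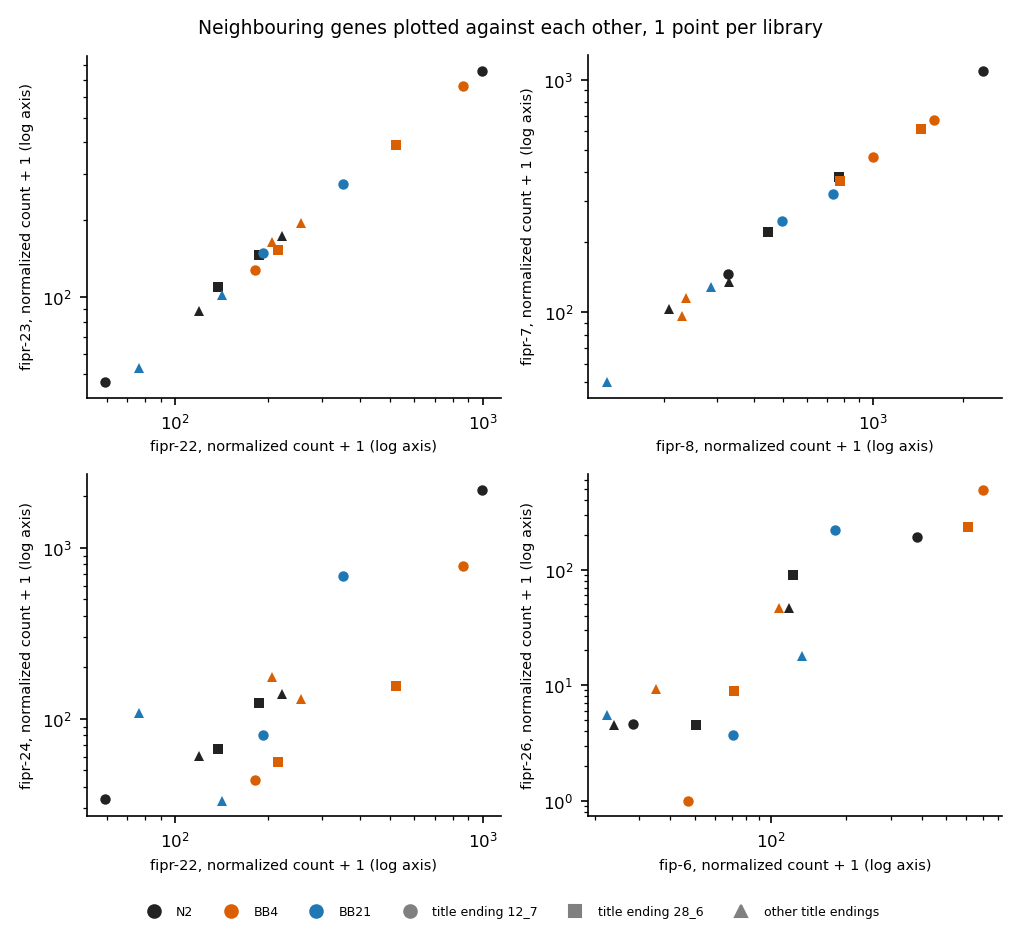
Normalized count + 1 of neighbouring genes against each other on log axes, 1 point per library, coloured by strain and shaped by title ending. For fipr-22 and fipr-23 and for fipr-8 and fipr-7 the points follow 1 line, with ratios of 0.689 to 0.792 and 0.385 to 0.497, while fipr-24 ranges from 0.229 to 2.19 times fipr-22 and fipr-26 from 0 to 1.21 times fip-6.

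The first question was which members respond to heat shock in the wild type. In N2, fipr-26 on chromosome I rose from a base of a few reads, and its neighbour fip-6 was higher in each heat-shocked library than in any control. The count of fipr-26 was 3.65, 3.55 and 3.51 in N2 replicates 1 to 3 under standard conditions. It was 190.2, 88.5 and 46.0 in the same replicates after heat shock. The controls correspond to 2, 2 and 8 reads, all heat-shocked libraries lay above them, and the log2 fold change was 4.35 ± 1.09 (SE, n = 3 and 3, adjusted p = 0.046, limma). The call lost its side of the threshold with other fits (adjusted p 0.00051 to 0.369 over 16 alternatives) and in 12 of the 16 fits that left out 1 library, where adjusted p was 0.0327 to 0.181.

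The count of fip-6 was 27.4, 49.8 and 22.8 in N2 under standard conditions and 380.5, 122 and 117 after heat shock. These groups did not overlap, and the log2 fold change was 2.45 ± 0.74 (SE) with an adjusted p of 0.0838, which became 0.0162 with the replicate number as a block. Its other chromosome I relatives lay higher as well, without passing the test. The count of fipr-24 was 32.9, 65.7 and 60.0 under standard conditions and 2185, 123 and 139 after heat shock, a log2 fold change of 2.70 ± 0.99 (SE, adjusted p = 0.146). Heat shock replicate 1, the shallowest library, stood far above the other 2. The count of fipr-22 was 58.4, 137 and 118 before and 996, 187 and 221 after heat shock, a log2 fold change of 1.80 ± 0.76 (SE, adjusted p = 0.201), and fipr-23 gave 1.80 ± 0.78 (SE, adjusted p = 0.213).

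Over the family, 1 of the 33 tested rows rose in N2 and 0 fell, against 2.36% of all 24401 tested rows that rose and 0.537% that fell. The same row had a log2 fold change over 2, as did 1.84% of all rows that rose. At an unadjusted p under 0.05, 7 member rows were higher and 0 lower, against 12.2% and 7.6% of all rows. With no overlap between the groups, 10 rows were higher and 0 lower, against 11% and 7.62%. Those 10 were all 5 chromosome I genes, fip-7, fipr-27 and fipr-28 of chromosome IV, fipr-29 of chromosome III and fipr-3 of chromosome X. The fold change was above 0 in 30 of 33 rows, with a median of 0.94 on the log2 scale beside 0.04 over all rows. By chromosome the median was 2.45 for I, 1.10 for III, 0.77 for IV, 0.50 for V and 0.15 for X. With the replicate number as a block 7 rows rose and 0 fell, against 9.57% and 9.91% of all rows. Those that rose were fipr-26, fip-6, fipr-3, fipr-29 and the chromosome V neighbours fipr-4, fipr-6 and fipr-8. Without N2 heat shock replicate 1, in which the family's summed count was 3.48 times that of its control, the median fell to 0.37.

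**Figure D3:**
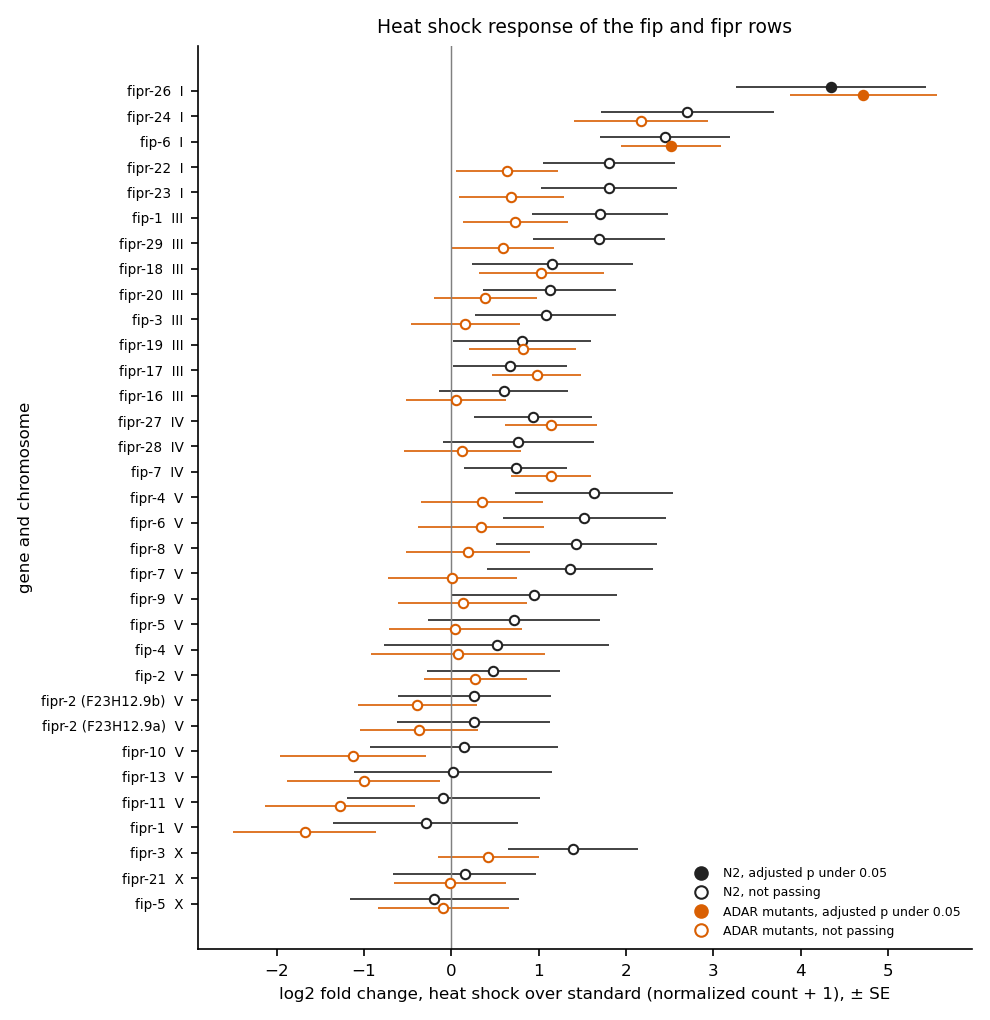
Log2 fold change of normalized count + 1 after heat shock, with its SE, for the 33 tested rows ordered by chromosome, in N2 (black, n = 3 and 3) and in ADAR mutants (orange, n = 5 and 5), filled where the adjusted p is under 0.05. The filled points are fipr-26 in both and fip-6 in the ADAR mutants, at log2 fold changes of 4.35, 4.72 and 2.51.

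The rows with the highest counts in the family did not pass the test in N2. The count of fipr-21 was 1893, 2035 and 616 in N2 under standard conditions and 3405, 1940.5 and 494 after heat shock, so only replicate 1 was higher. Its log2 fold change was 0.15 ± 0.82 (SE, adjusted p = 0.968). The count of fip-2 was 663, 714 and 204 before and 1795, 618 and 238 after heat shock, a log2 fold change of 0.48 ± 0.76 (SE, adjusted p = 0.835). In WBcel235 fip-2 lies 5 protein-coding genes from hsp-16.48, a small heat-shock protein gene that rose by 2.13 ± 0.53 on the log2 scale (SE, adjusted p = 0.046) in N2. The F23H12.9a transcript of fipr-2 stood at 566, 705 and 283 before and 1195, 732 and 220.3 after heat shock, and F23H12.9b at 464, 572 and 235 before and 983, 609 and 181 after. Replicates 1 and 2 lay higher and replicate 3 lower after heat shock, and the log2 fold changes of both transcripts were 0.26 (SE 0.87 and 0.88, adjusted p = 0.944 and 0.943).

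The group of 6 neighbours on chromosome V was higher after heat shock in each numbered pair of N2 libraries, by factors that differed widely. The count of fipr-8 was 325, 444 and 207 before and 2330.4, 769.5 and 328 after heat shock, a log2 fold change of 1.43 ± 0.92 (SE, adjusted p = 0.439, and 0.0447 with the replicate number as a block). That of fipr-4 was 152, 208 and 105 before and 1256, 416 and 192 after, a log2 fold change of 1.63 ± 0.90 (SE, adjusted p = 0.344, and 0.0291 with the block). That of fipr-7 was 144, 220.3 and 102 before and 1088, 379.6 and 134 after, a log2 fold change of 1.36 ± 0.95 (SE, adjusted p = 0.491). The highest control overlapped the lowest heat-shocked library for each of these 3 genes, since deep and shallow libraries differed within a condition. Of the other genes of chromosome V, fipr-1, fipr-10, fipr-11 and fipr-13, chosen after their values were seen, had log2 fold changes of -0.29, 0.14, -0.09 and 0.02 (adjusted p 0.95 to 0.998).

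In the ADAR mutants fipr-26 and fip-6 both rose. The count of fipr-26 was 7.84, 0 and 8.28 in BB4 replicates 1 to 3 and 2.68 and 4.47 in BB21 replicates 1 and 2 under standard conditions. After heat shock it was 233, 492 and 45.4 in BB4 and 218 and 16.8 in BB21. Each heat-shocked library lay above all controls, and in BB4 replicate 2, with no read in its control, the count was at least 100-fold higher than the 4.92 that 3 reads in that library correspond to. The log2 fold change was 4.72 ± 0.84 (SE, n = 5 and 5, adjusted p = 0.00552, limma). The count of fip-6 was 70.6, 45.9 and 33.9 in BB4 and 69.8 and 21.3 in BB21 before, and 609, 699 and 107 in BB4 and 180.0 and 133 in BB21 after heat shock. Again the groups did not overlap, and the log2 fold change was 2.51 ± 0.57 (SE, adjusted p = 0.0179). Without BB4 heat shock replicate 2 the adjusted p of fip-6 was 0.0523. With BB4 or BB21 as the only mutant strain neither gene passed (adjusted p 0.124 and 0.663 for fipr-26, 0.187 and 0.833 for fip-6). In either single-strain fit 0% of all rows passed, against 7.4% in either direction with both strains. The loss was therefore not particular to these genes, and these fits cannot show whether their response depends on the strain.

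Both genes were higher in heat-shocked worms in 8 of 8 numbered pairs of libraries, and so was fipr-24. The pairs rest on strain and replicate number, and the titles of BB4 replicate 3 end differently in the heat-shocked and the control library. The count of fipr-26 after heat shock, divided by that of its control, was 3.76 to 13.1 in the 3 pairs of deep libraries, whose controls held 8 to 21 reads. It was 29.7 in BB4 replicate 1, with 5 reads in the control. The controls of N2 replicates 1 and 2 and BB21 replicate 1 held 2 reads each, and the ratios there were 52.1 (95% exact interval 13.8 to 440.0), 24.9 (6.64 to 209.7) and 81.2 (22.1 to 676), intervals that cover counting error only. For fip-6 this ratio was 3.15 to 6.24 in the deep pairs and 2.45 to 15.2 in the shallow ones. For fipr-26 the interval of N2 replicate 2 covers the ratio of the deep N2 pair (13.1, 6.43 to 31.1), so the counting error does not separate these 2 pairs.

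**Figure D4:**
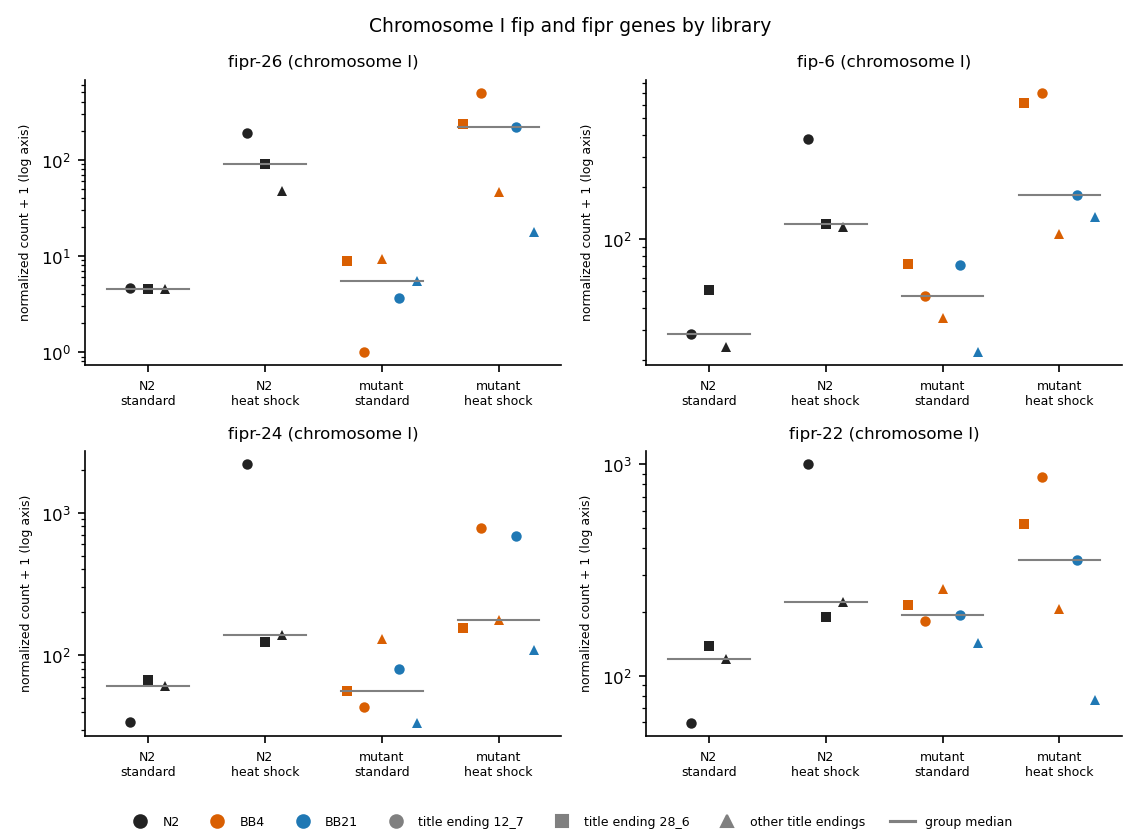
Normalized count + 1 of fipr-26, fip-6, fipr-24 and fipr-22 on log axes, 1 point per library, coloured by strain and shaped by title ending, with grey lines at group medians. For fipr-26 and fip-6 every heat-shocked library lies above every control library of the same group, whereas for fipr-22 BB21 heat shock replicate 2, at 75.5, lies below all mutant controls.

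Over the family, 2 of 33 rows rose and 0 fell in the ADAR mutants, against 5.01% and 2.39% of all rows, and the same 2 were the rows without overlap between groups, against 6.48% of all rows higher and 4.2% lower. At an unadjusted p under 0.05, 5 rows were higher and 0 lower, against 12.9% and 7.59% of all rows. The fold change was above 0 in 25 of 33 rows, with a median of 0.27 on the log2 scale beside 0.07 over all rows. That median was 0.02 without BB4 heat shock replicate 2 and 0.66 without BB21 heat shock replicate 2, and it turned from 0.81 in the shallow libraries to -0.59 in the deep ones. By chromosome the median was 2.17 for I, 0.66 for III, 1.14 for IV, 0.03 for V and -0.02 for X. With the replicate number as a block 3 rows rose and 1 fell, against 13.3% and 9.75% of all rows. The third that rose was fipr-24, at 54.9, 42.7 and 129 in BB4 and 79.2 and 32.3 in BB21 before, and 155, 780.2 and 175 in BB4 and 679.6 and 108 in BB21 after heat shock. Its log2 fold change was 2.17 ± 0.77 (SE, adjusted p = 0.106, and 0.0441 with the block). The row that fell was fipr-1 on chromosome V, with a log2 fold change of -1.68 ± 0.82 (SE, adjusted p = 0.269, and 0.0233 with the block).

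The count of fipr-1 was 422, 505 and 223 in BB4 and 368 and 150.5 in BB21 before, and 259.7, 211 and 34.4 in BB4 and 268 and 14.3 in BB21 after heat shock. It was lower in 5 of 5 mutant pairs and in 2 of 3 pairs of N2, where it stood at 309, 451 and 188 before and 701, 337 and 60.0 after. In the ADAR mutants fipr-10, fipr-11 and fipr-13 lay below 0 too, with log2 fold changes of -1.12, -1.28 and -1.0 (adjusted p 0.471 to 0.628). For all 4 genes the deep BB21 pair had the lowest ratio, down to 0.0601 for fipr-10, whose count went from 112 to 6.71.

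The other high members had these counts in the mutants. The count of fipr-21 was 1546, 1666 and 541 in BB4 and 1508 and 451 in BB21 before, and 2007, 1965 and 438 in BB4 and 1289 and 404 in BB21 after heat shock. That of fip-2 was 536, 612 and 213 in BB4 and 507 and 161 in BB21 before, and 720.2, 774 and 243 in BB4 and 517 and 212 in BB21 after. After heat shock fipr-21 was higher in 2 of 5 pairs and fip-2 in 5 of 5, and the log2 fold changes were -0.02 ± 0.64 and 0.27 ± 0.59 (SE, adjusted p = 0.997 and 0.907). The count of fipr-8 was 771, 1001 and 235 in BB4 and 494 and 287 in BB21 before, and 1449, 1599 and 229 in BB4 and 734 and 127 in BB21 after. That of fipr-4 was 414, 559.6 and 117 in BB4 and 249.6 and 163 in BB21 before, and 888, 963 and 137 in BB4 and 374 and 85.5 in BB21 after. Both were higher after heat shock in the 3 shallow pairs and lower in the deep BB21 pair, with log2 fold changes of 0.19 ± 0.71 and 0.35 ± 0.70 (SE, adjusted p = 0.954 and 0.895).

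The same split held for fipr-7, at 367, 463 and 114 in BB4 and 246 and 127 in BB21 before, and 614, 669 and 95 in BB4 and 322 and 49.1 in BB21 after heat shock. Its log2 fold change was 0.01 ± 0.74 (SE, adjusted p = 0.999). The F23H12.9a transcript of fipr-2 stood at 639.7, 776 and 288 in BB4 and 620.0 and 218 in BB21 before, and 747, 895 and 151 in BB4 and 658 and 81.4 in BB21 after. F23H12.9b stood at 535, 647 and 243 in BB4 and 513 and 184 in BB21 before, and 618, 750.3 and 126 in BB4 and 536 and 65.4 in BB21 after. Their log2 fold changes were -0.37 ± 0.68 and -0.39 ± 0.68 (SE, adjusted p = 0.884 and 0.875), with the shallow pairs higher and the deep pairs lower after heat shock. Over all 34 rows, 30 were higher in the pair of BB4 replicate 1, 26 in that of BB4 replicate 2 and 27 in that of BB21 replicate 1, all shallow, against 15 for BB4 replicate 3 and 8 for BB21 replicate 2, both deep. In N2 these counts were 31, 27 and 22 for replicates 1 to 3.

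The next question was whether members differ between strains. Under standard conditions 0 of 33 rows passed the test in limma in either direction, against 0.0041% of all rows higher and 0% lower in the mutants. At an unadjusted p under 0.05, 6 member rows were lower in the ADAR mutants and 0 higher, against 0.738% and 3.14% of all rows, and edgeR and DESeq2 on the recovered reads called 0 as well, with 4 rows each under that unadjusted p. The 6 rows were fipr-17, fipr-18, fipr-19 and fipr-20 of chromosome III and fip-7 and fipr-28 of chromosome IV, all with low counts. Groups did not overlap for 4 rows lower in the mutants (fipr-17, fipr-19, fipr-20 and fipr-28, against 1.96% of all rows) and 1 higher (fipr-22, against 2.85%). By chromosome the median log2 difference was -1.21 for III and -1.24 for IV, beside 0.47 for I, 0.11 for V and -0.43 for X.

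The count of fipr-18 was 16.43, 12.4 and 11 in N2, 0, 1.64 and 1.58 in BB4, and 0 and 12 in BB21. All mutant libraries but BB21 replicate 2 lay below N2, and the log2 difference was -2.52 ± 0.83 (SE, adjusted p = 0.866). The count of its neighbour fipr-19 was 9.13, 12.4 and 6.14 in N2, 0, 3.28 and 0.789 in BB4, and 0 and 4.81 in BB21, a log2 difference of -2.21 ± 0.71 (SE, adjusted p = 0.841). That of fipr-20, with 1 protein-coding gene between it and fipr-18, was 9.13, 8.88 and 8.33 in N2, 0, 3.28 and 1.58 in BB4, and 0 and 5.50 in BB21, a log2 difference of -2.06 ± 0.68 (SE, adjusted p = 0.875). BB21 replicate 2 was the highest mutant library for all 3 genes. In the shallow libraries of N2 and the mutants 3 reads correspond to 4.03 to 5.48 normalized counts under standard conditions, so the mutant values there are at or under that level.

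The count of fipr-28 on chromosome IV was 36.5, 39.1 and 41.2 in N2, 6.27, 16 and 7.49 in BB4, and 5.37 and 24.4 in BB21, a log2 difference of -1.84 ± 0.77 (SE, adjusted p = 1). That of fip-7, chosen after its values were seen, was 7.30, 5.33 and 6.57 in N2, 1.57, 1.64 and 1.58 in BB4, and 1.34 and 6.53 in BB21, a log2 difference of -1.23 ± 0.53 (SE, adjusted p = 1). Both N2 groups were tight, and BB21 replicate 2, a deep library, was again the highest mutant library. For fip-7 the N2 values rest on 4, 3 and 15 reads and each shallow mutant value on 1 read. Within the sets of libraries the mutants lay below N2 for all 6 rows in each set: for fipr-18 the log2 difference was -3.42 in the 12_7 set, -3.75 in the 28_6 set and -1.05 in the deep libraries, and for fipr-28 it was -1.83, -2.46 and -1.52. Each of these within-set values rests on 1 library of N2.

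The chromosome I genes did not lie lower in the mutants under standard conditions, and fipr-26 and fip-6 had log2 differences of -0.05 ± 0.97 and 0.47 ± 0.66 (SE, adjusted p = 1 for both). For fipr-22 the mutants, at 215, 181 and 256 in BB4 and 192 and 141 in BB21, lay above the N2 values of 58.4, 137 and 118. The log2 difference was 0.97 ± 0.68 (SE, unadjusted p = 0.175, adjusted p = 1, limma) and did not pass the test.

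**Figure D5:**
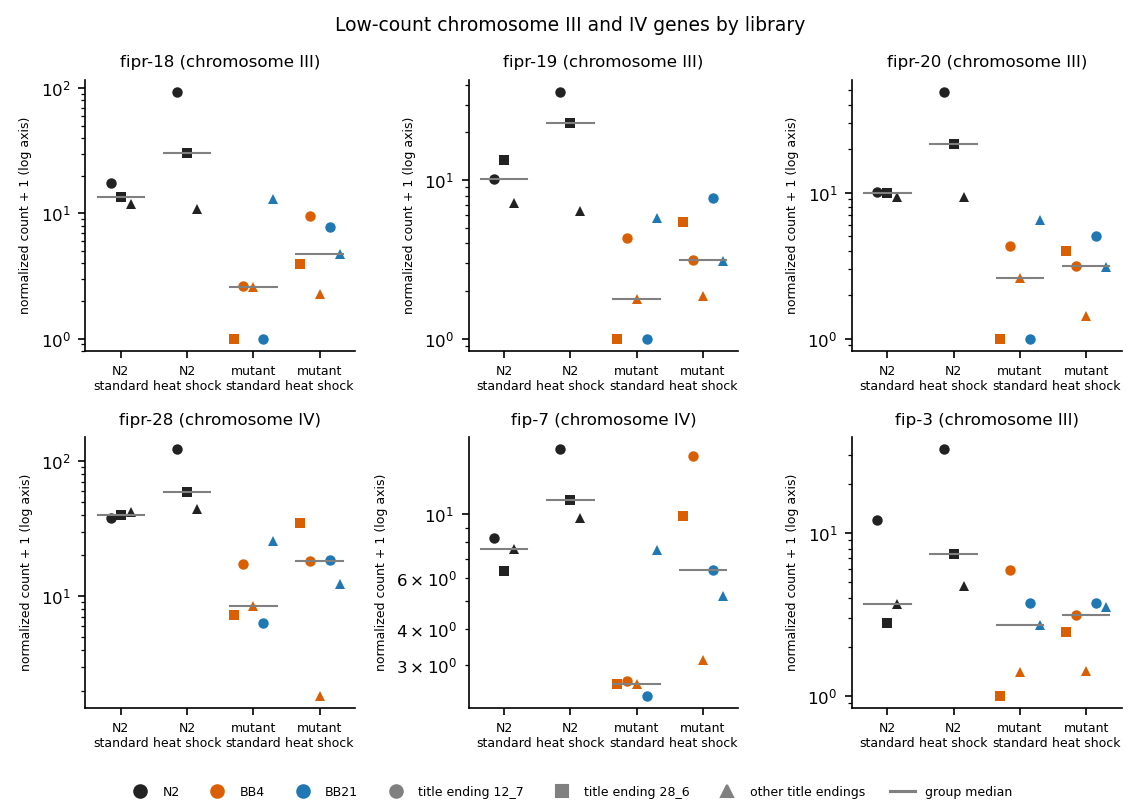
Normalized count + 1 of 6 low-count genes of chromosomes III and IV on log axes, 1 point per library, coloured by strain and shaped by title ending, with grey lines at group medians. For fipr-18 the N2 libraries lie at 9.94 to 91.9 and the mutant libraries at 0 to 12, the highest being BB21 standard replicate 2.

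After heat shock 0 of 33 rows passed between strains in limma (edgeR and DESeq2 also 0, with 6 and 7 rows under an unadjusted p of 0.05), against 0% of all rows in either direction. At an unadjusted p under 0.05, 6 rows were lower in the ADAR mutants and 0 higher, against 1.89% and 2.75% of all rows. The groups did not overlap for 4 rows lower in the mutants (fipr-20, fipr-18, fipr-28 and fip-3) and 0 higher, against 0.77% and 0.607% of all rows. The difference was below 0 in 30 of 33 rows, with a median of -0.68 on the log2 scale beside 0.03 over all rows. The exceptions were fip-4, fip-6 and fipr-26, and without N2 heat shock replicate 1 the median was -0.19.

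The count of fipr-20 after heat shock was 47.6, 20.5 and 8.28 in N2, 2.95, 2.13 and 0.424 in BB4, and 4.06 and 2.10 in BB21. All mutant libraries lay below all N2 libraries, and the log2 difference was -2.79 ± 0.68 (SE, adjusted p = 0.868, and 0.0376 without N2 heat shock replicate 3). These mutant values rest on 2, 1 and 1 reads in BB4 and 3 and 5 in BB21, against 15, 16 and 20 in N2. The count of fipr-18 was 91.9, 29.5 and 9.94 in N2, 2.95, 8.53 and 1.27 in BB4, and 6.77 and 3.77 in BB21, a log2 difference of -2.65 ± 0.83 (SE, adjusted p = 0.892). That of fipr-19 was 34.9, 21.8 and 5.38 in N2, 4.43, 2.13 and 0.848 in BB4, and 6.77 and 2.10 in BB21, a log2 difference of -2.20 ± 0.71 (SE, adjusted p = 0.906). That of fipr-28 was 120.5, 57.7 and 43.1 in N2, 33.9, 17.1 and 0.848 in BB4, and 17.6 and 11.3 in BB21, a log2 difference of -2.48 ± 0.77 (SE, adjusted p = 0.892). The mutants again formed the lower group for each of these genes, with fipr-19 alone overlapping through the deep N2 library.

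The chromosome III neighbours fip-3 and fipr-16 were the remaining rows under that unadjusted p. The count of fip-3, chosen after its values were seen, was 31.7, 6.41 and 3.73 in N2, 1.48, 2.13 and 0.424 in BB4, and 2.71 and 2.52 in BB21, a log2 difference of -1.95 ± 0.72 (SE, adjusted p = 0.906). Its values rest on 10, 5 and 9 reads in N2, 1 read in each BB4 library, and 2 and 6 in BB21. In N2 the deep replicate 3 was the lowest of the 3 heat-shocked libraries for fip-3, fipr-18, fipr-19, fipr-20 and fipr-28. The summed count of fipr-18, fipr-19 and fipr-20 was 23.6 to 174 in heat-shocked N2 and 2.54 to 17.6 in the heat-shocked mutants, and 25.4 to 34.7 and 0 to 22.3 under standard conditions. The N2 and mutant libraries did not overlap in either condition.

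Whether the heat shock response differs between ADAR mutants and N2 was tested as an interaction, and 0 of 33 rows passed, with 0 also at an unadjusted p under 0.05 in limma, edgeR and DESeq2. Of all rows 0% passed, and 0.34% and 1.06% lay higher and lower at that unadjusted p. The lowest p values belonged to fipr-22 and fipr-29, with differences of the responses of -1.17 ± 0.96 and -1.10 ± 0.95 on the log2 scale (SE, adjusted p = 1 for both). The count of fipr-22 in the mutants was 521, 863 and 206 in BB4 and 351 and 75.5 in BB21 after heat shock. That of fipr-29 on chromosome III was 21.9, 19.5 and 11 in N2, 34.5, 44.3 and 8.28 in BB4, and 29.5 and 23.4 in BB21 before, and 133, 46.2 and 29 in N2, 79.7, 72.5 and 20.4 in BB4, and 43.3 and 14.3 in BB21 after. The difference was below 0 for 26 of 33 rows with a median of -0.67, and without N2 heat shock replicate 1 that median was -0.13. For fipr-26 and fip-6 the differences were 0.37 ± 1.37 and 0.07 ± 0.94 (SE, adjusted p = 1 for both), and SEs of this size leave room for a difference in either direction.

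Other genes of the same epidermal defence programme gave a background for these values. Of all rows, 2.36% rose in N2 and 5.01% in the ADAR mutants. Of 10 tested rows of the cnc peptides 4 rose in N2 and 7 in the ADAR mutants, with medians of 3.57 and 3.67 on the log2 scale. The steepest was cnc-11, at 5.25 ± 1.25 in N2 and 5.56 ± 0.97 in the mutants (SE, adjusted p = 0.0403 and 0.00496). Of 11 rows of the nlp peptides 3 rose in N2 and 4 in the mutants, with medians of 1.36 and 1.26, among them nlp-30 at 3.67 ± 0.65 and 3.07 ± 0.50 (SE, adjusted p = 0.0136 and 0.0037). Of 31 rows of signalling genes of the epidermal immune response 0 rose in N2 (2 at an unadjusted p under 0.05) and 1 in the mutants, which was sma-3, a SMAD of the TGF-beta pathway, at 0.82 ± 0.22 (SE, adjusted p = 0.0358). Of 27 rows of molting genes 0 rose in N2 and 2 in the mutants (mlt-8 and bli-5), of 7 rows of furrow collagens 0 in either, and no row of these lists fell. None of these lists had a row that passed between strains. These comparisons share their control libraries.

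Markers of epidermis (7 rows), intestine, body muscle, pharynx, neurons and germ line were present in all groups of these whole worms, and 0 of their rows passed in any comparison in limma. The median log2 fold change of the epidermis markers was 0.05 in N2 and -0.09 in the mutants, beside 0.94 and 0.27 for the fip and fipr rows. The part of cell composition in the family's values was not tested.

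The rows whose pattern was most like the summed count of the family were found by Pearson's r of log2 values over the 16 libraries, among 18860 rows with a mean of at least 20. They were both transcripts of B0513.9 (r = 0.986), ttr-3 (0.982), F26F12.5b (0.982), ttr-15 (0.981), ttr-59 (0.981), the cnc family member cnc-10 (0.980) and W04H10.1 (0.979). Of these, 3 are ttr genes, which encode proteins related to transthyretin. The 16 points hold the contrast between deep and shallow libraries, and over the 10 shallow libraries alone r was 0.920 to 0.990 for these rows. These values describe likeness in these libraries only.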

How the data were processed

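Poly(A) RNA of 16 samples was sequenced as single reads of 50 nt (TruSeq libraries). The authors trimmed and collapsed the reads, used Bowtie with the transcripts of WS220, kept reads with several alignments, and counted reads for each transcript. The deposited signal values are these counts divided by a DESeq2 size factor of the library. Versions are not given in the sources used here. A second deposited table, with the authors' fold changes and p-values of heat shock and a class, was not used. All values (100.0%, tolerance 0.001) were whole multiples of a library's step, which gave reads. The main test was limma 3.58.1 in R 4.3.3 with a variance trend, on log2 (normalized count + 1), where the added 1 understates fold changes of low rows, in 4 groups, for 24401 rows with a mean of at least 1. P-values were adjusted by Benjamini and Hochberg over all of them, with a threshold of 0.05. Alternatives were edgeR 4.0.16 (quasi-likelihood) and DESeq2 1.42.0 on the reads, other pseudocounts, filters, scalings and strains, sets of libraries and each library left out. Same-numbered libraries of a strain deviated together (r = 0.385 to 0.822 over 8 pairs), although in 3 of 8 another heat-shocked library correlated more strongly with the control, and their number was used as a block in an alternative. Values per library are printed for the 8 rows with the highest mean, rows that passed a test and the 2 lowest p in each comparison. Members and lists were chosen with earlier results of these data known. The study calls the replicates biological, and p-values cover the spread between these samples. Reads carry no molecular identifiers. Chromosomes, lengths and neighbours are from WBcel235 (33 of 33 genes matched), which is not the build of the counts, so no coordinates are given.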

Additional observations from a re-analysis of the deposited data

Results flagged for a closer look

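In 70 groups of 5 mutant libraries (each member row and the family sum, in each condition) the highest or lowest library was compared with the range of its group by Dixon's test, which flags about 1 in 20 groups by chance, and 3 stood apart. Under standard conditions fipr-18 was at 12 normalized counts in BB21 replicate 2 and at 0 to 1.64 in the other mutant libraries. In the same library fip-7, with 19 reads, was at 6.53, against 1.34 to 1.64 in the others, which held 1 to 4 reads. After heat shock fip-1 was at 7.38 in BB4 replicate 1, against 0.424 to 2.13 in the others.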

How the results depend on the processing

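No member reversed its direction where it was called. In N2 the heat shock test passed 1 row as reported and 0 with a pseudocount of 5, quantile normalization, edgeR, BB4 alone, BB21 alone or a fit of the compared groups alone, with 8, 3, 8, 6, 6 and 6 rows at an unadjusted p under 0.05. Of all rows 2.9% passed as reported and 2.06%, 0.631%, 1.62%, 0.193%, 0% and 0% in these fits, in either direction. The N2 test passed 4 member rows with DESeq2, 7 with the replicate block and 6 with a term for the title-ending set. Of all rows 8.51%, 19.5% and 22.9% passed there in either direction. With 1 library left out it passed 0 to 1. In the 12_7 libraries alone, with 1 N2 library per condition, the median log2 fold change was 1.82. In the ADAR mutants it passed 2 rows as reported and 1 with quantile normalization, against 7.4% and 4.77% of all rows. It passed 4 each with the replicate block, with the set term and in the 12_7 and 28_6 libraries, against 23%, 24.5% and 8.56%. It passed 0 each with BB4 or BB21 alone (3 and 2 unadjusted), against 0% of all rows in each fit. With 1 library left out it passed 1 to 3, against 814 to 2266 of all rows. In the deep libraries alone, with 2 mutant libraries per condition, it passed 3, against 19.6% of all rows. These were fip-6, which was higher, and fipr-1 and fipr-13, which were lower. DESeq2 passed 3, the third being fipr-24, against 12.7% of all rows. Between strains after heat shock 0 rows passed as reported, and 0 to 1 with 1 library left out (fipr-20 without N2 heat shock replicate 3). In the 12_7 libraries alone the median log2 difference was -1.14, which rests on 1 N2 library, heat shock replicate 1. Between strains under standard conditions and for the difference of the responses 0 rows passed under every alternative run, with 6 and 0 rows at an unadjusted p under 0.05 in limma as reported. Between strains, which share no pairs, the title-ending set took the place of the replicate number in the block. Over all rows the N2 test called 708, against 396 with edgeR, 2076 with DESeq2 and 4752 with the replicate block, and the mutant test 1805, against 1781, 3104 and 5616. Over the alternatives run on all libraries or parts of them these counts were 0 to 5600 and 0 to 5975, and with 1 library left out 39 to 1417 and 814 to 2266. Between strains they were 1 (0 to 62) under standard conditions and 0 (0 to 301) after heat shock, leaving out fits with 1 N2 library per condition. The block changed no other call than those given above and in the report. The causes of these changes were not tested. Low counts limit the chromosome III and IV genes in shallow libraries.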
